A study of Homo sapiens with 36 samples.

Results

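The genes described are 10 hypoxia-inducible and glucose uptake genes, taken by symbol: the glucose transporter genes SLC2A1 and SLC2A3, the glycolytic enzyme genes HK2, PFKFB3 and ALDOC, PDK1, BNIP3, VEGFA, NDRG1 and HIF1A. All 10 of 10 were listed, among 15891 genes of the table. They were followed in HCT116, a human cell line derived from a colorectal carcinoma, which received 10 µM 5-fluorouracil (5-FU) for 48 h, per the labels. Cells were collected on D0 (before the drug), D1, D2, D7, D14 and D16, and each collection gave a heavy polysomal pool (mRNA with more than 3 ribosomes) and cytoplasmic RNA, in 3 letters (A, B and C), for 36 libraries in 12 groups. D1 and D2 fall within the 48 h of drug and the later days after it. All groups share emetine, which holds ribosomes on mRNA, given at 25 µg/ml for 10 min before lysis. There is no untreated culture of the later days, so drug and time in culture cannot be told apart, and the sources used here do not tell how D16 cultures were handled after D14. The labels tag the letter as a batch and do not say that letters are separate cultures, so p-values measure the spread between these libraries, which may be technical.

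HIF1A encodes the oxygen-regulated subunit of hypoxia-inducible factor 1 (HIF-1), a transcription factor whose amount is set mainly by degradation of the protein when oxygen is present, so its mRNA level is no measure of its activity. HIF-1 binds short DNA elements, the hypoxia response elements, and raises genes that bring glucose into the cell, run glycolysis, hold pyruvate back from mitochondria, remove mitochondria and call in blood vessels. Several of these genes also answer to other regulators, among them MYC, p53, ATF4 and growth factor signalling. In colorectal carcinoma the glucose transporter gene SLC2A1 and the angiogenic factor gene VEGFA are well-known members of this programme.

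Promoter sequences are shown for ALDOC, PDK1 and BNIP3, whose mRNA was higher in the heavy pool at D16 than at D14 and at D0 and whose windows hold 2 or more copies of the core of the hypoxia response element. The core was searched as ACGTG and GCGTG on both strands (CACGT and CACGC read on the printed strand), in windows that run from 250 bases before to 50 bases after the RefSeq gene start (GRCh38.p14). Capitals mark each match, and a palindromic CACGTG counts as 2 matches, 1 on each strand.

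The sequences, read 5′ to 3′ on the strand of the gene, are as follows.
ALDOC (chr17:28576846-28577145, minus strand): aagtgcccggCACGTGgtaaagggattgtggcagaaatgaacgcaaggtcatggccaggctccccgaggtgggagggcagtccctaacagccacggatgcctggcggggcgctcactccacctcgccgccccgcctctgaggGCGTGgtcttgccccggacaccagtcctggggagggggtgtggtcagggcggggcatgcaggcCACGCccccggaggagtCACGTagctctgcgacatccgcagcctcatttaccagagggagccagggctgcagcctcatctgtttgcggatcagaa
PDK1 (the second of the gene starts in the table, chr2:172555840-172556139, plus strand): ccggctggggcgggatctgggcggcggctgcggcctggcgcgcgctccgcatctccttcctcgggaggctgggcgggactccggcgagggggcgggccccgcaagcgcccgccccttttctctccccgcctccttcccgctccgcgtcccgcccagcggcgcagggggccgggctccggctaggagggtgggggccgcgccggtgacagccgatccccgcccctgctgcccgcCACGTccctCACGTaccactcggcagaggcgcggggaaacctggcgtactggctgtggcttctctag
BNIP3 (chr10:131981874-131982173, minus strand): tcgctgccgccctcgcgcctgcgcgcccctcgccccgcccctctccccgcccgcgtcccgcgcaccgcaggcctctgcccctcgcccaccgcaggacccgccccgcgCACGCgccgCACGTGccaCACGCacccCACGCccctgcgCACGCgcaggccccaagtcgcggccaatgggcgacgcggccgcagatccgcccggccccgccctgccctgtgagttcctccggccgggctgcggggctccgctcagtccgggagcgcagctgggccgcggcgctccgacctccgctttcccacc

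The ALDOC window held 5 matches, of which the pair nearest the start lay at -45 and -28 (first base, counted from the gene start). The printed PDK1 window held 2, at -17 and -8, the window at its other listed start held 0, and the BNIP3 window held 6, all between -143 and -104. Among the 7 genes with a window in the table (SLC2A1, HK2, PFKFB3 and HIF1A besides these), SLC2A1 held 1 match, at 26 bases after its start, and the HK2 windows at its 2 listed starts held 3 and 6. The PFKFB3 windows held 1 and 2, and the HIF1A windows 1 and 0. NDRG1, SLC2A3 and VEGFA had no entry. ACGTG stood in 21.4% of all 35116 promoter windows, GCGTG in 36.5% and either core in 48.4%, so that a match is a description of these letters and not evidence of a bound site.

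Read totals over the listed genes were 46.1 to 55.7 megareads in the heavy pool (median 51.7) and 41.0 to 103.6 in the cytoplasm (median 48.0, with a second highest of 55.2). The values are normalised read counts, meaning reads divided by a size factor for each library, and the deposited table has no gene below 1.004 in any library. Cytoplasmic libraries scattered more around their group means (SD over genes of 0.238 to 0.663 on the log2 scale) than heavy pool libraries (0.164 to 0.254). The most deviant library was letter A of D7 in the cytoplasm, and letter B of D14 and of D16 in the cytoplasm deviated along GC content (r across genes of 0.74 and 0.69). Of 9 colorectal epithelial markers 6 were listed, among them EPCAM, CDH1 and KRT18, and of 16 markers of other cell types 4 were (ITGAM, COL1A1, ACTA2 and HBA1), while PTPRC, PECAM1, ALB, GFAP and 8 others were not. The summed level of these 4 was 2219 to 2496 at D1 against 741 to 1010 at D0 in the heavy pool, and 2556 to 2932 against 536 to 637 in the cytoplasm, and it stayed above the D0 range on every later day in the cytoplasm; its part in the results was not tested. As a check of the drug response, all 6 of 6 listed p53 target genes, among them CDKN1A, were higher at D1 and at D2 than at D0 in both fractions.

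Changes were tested with limma on log2(value + 1), and a gene was called at a Benjamini-Hochberg adjusted p under 0.05 over all genes tested in that fraction. Each log2 difference is later day minus earlier day, with its standard error, and understates the change of genes with low values. Over the whole course, all 10 genes differed between days in the heavy pool, where 95.1% of all genes did, and 7 did in the cytoplasm, where 61.5% of all genes did. HIF1A, PFKFB3 and VEGFA were the ones not called in the cytoplasm (adjusted p = 0.64, 0.208 and 0.0717, limma F test). With the letter as replicate block PFKFB3 (0.0214) and VEGFA (0.0219) were called too, making 9 of 10, and with the GC correction added HIF1A was as well (0.0249). Over all genes the cytoplasmic calls were 9769 in the main fit, 11644 with the block and 12994 with the GC correction added. Both shares of called genes lie near or above the background, so the counts alone say nothing particular about these genes. The libraries are of bulk RNA, in which fewer cells with a transcript and less of it per cell cannot be told apart.

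**Figure D1:**
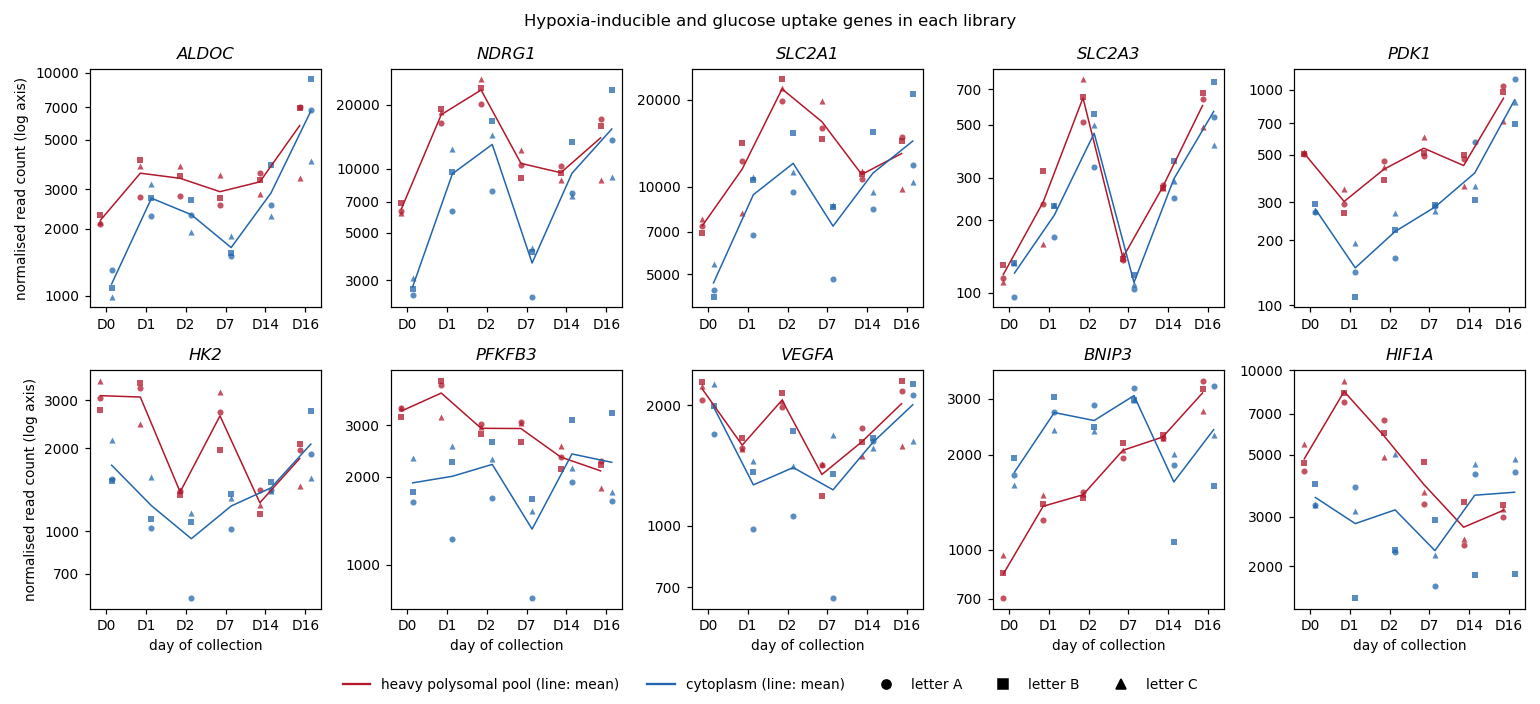
Normalised read counts (log axis) of the 10 genes in each library of the heavy polysomal pool (red, left of each day) and the cytoplasm (blue, right), by day of collection. Markers are letters and lines join means of 3 libraries; SLC2A3, NDRG1 and SLC2A1 peak at D2 in the heavy pool, and BNIP3 has its highest heavy pool mean at D16.

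SLC2A1 and SLC2A3 encode GLUT1 and GLUT3, the plasma membrane carriers that let glucose enter by facilitated diffusion; GLUT3 has the higher affinity. SLC2A1 (ENSG00000117394, chr1:42925375-42959176, minus strand, GRCh38, GENCODE 29) was by far the more abundant. Per kilobase of exon its D0 level was 1555 in the heavy pool and 987 in the cytoplasm, against 19.3 and 19.6 for SLC2A3 (ENSG00000059804, chr12:7919230-7936275, minus strand). In the heavy pool SLC2A1 stood at 7345, 6935 and 7764 at D0, 12296, 14154 and 8137 at D1, and 19827, 23512 and 22039 at D2 (normalised read counts of letters A, B and C). Later it stood at 16018, 14633 and 19751 at D7, 10645, 11102 and 11387 at D14, and 14856, 14412 and 9860 at D16. The 3 D2 libraries were above every library of the other days, and no later library came down to the D0 range. SLC2A1 was higher than at D0 on all 5 later days in the heavy pool, most at D2 (log2 difference 1.57 ± 0.16, adjusted p = 1.3e-08) and D7 (1.18 ± 0.16, adjusted p = 1.24e-06), and was lower at D14 than at D7 (-0.59 ± 0.16, adjusted p = 0.00308). The D1 difference (0.61) was lost without letter A or B (adjusted p = 0.0688 and 0.0915). In the cytoplasm it stood at 4395, 4181 and 5410 at D0, 6806, 10552 and 10850 at D1, and 9598, 15325 and 11264 at D2. On the later days the cytoplasmic values were 4796, 8531 and 8639 at D7, 8395, 15480 and 9591 at D14, and 11918, 20895 and 10380 at D16. Letter B of D14 and of D16 stood far above the other letters, and the letters of adjacent days in the order of means (D16, D2, D14, D1, D7, D0) overlapped throughout. SLC2A1 was called higher in the cytoplasm at D1, D2, D14 and D16 (log2 differences 0.99, 1.35, 1.22 and 1.57). Its D14 call ended without cytoplasmic letter B of D14 (0.95, adjusted p = 0.0641) and without letter B or C throughout (0.108 and 0.134), and its D1 call without letter B (0.82, adjusted p = 0.143), without letter C (0.98, adjusted p = 0.207) or under total-sum scaling (0.74, adjusted p = 0.196). With the letter as replicate block the cytoplasmic differences at D7 against D0 (0.61) and at D14 against D7 (0.61) were also called (adjusted p = 0.0357 and 0.0361, limma). SLC2A1 shares 128 exon bases with SLC2A1-AS1 on the opposite strand, which is listed too, and whether the counting used strand is not given in the sources used here, so reads of the pair may be mixed.

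SLC2A3 rose on either side of D7, a day on which its difference from D0 did not pass in either fraction with the deposited scaling. Its heavy pool values were 115, 130.4 and 110.5 at D0, 234, 320.0 and 159 at D1, and 514, 650.5 and 770.1 at D2. After the drug they were 136, 138 and 144 at D7, 280.0, 272 and 272 at D14, and 636, 674 and 489.9 at D16. The D7 libraries lay just above the highest D0 library, whereas those of D2 and D16 were several times higher. It was higher than at D0 at D1 (0.94 ± 0.19, adjusted p = 0.000284), D2 (2.42 ± 0.19, adjusted p = 1.5e-10), D14 (1.21 ± 0.19, adjusted p = 5.65e-06) and D16 (2.32 ± 0.19, adjusted p = 2.46e-10), and at D7 the difference of 0.23 did not pass (adjusted p = 0.284, limma) but did under total-sum scaling (0.52, adjusted p = 0.0168). The cytoplasmic values were 96.2, 133 and 132 at D0, 170.0, 228 and 231 at D1, and 331, 551 and 497 at D2. On the later days they were 103, 118 and 109 at D7, 247, 352 and 292 at D14, and 537, 753 and 409 at D16. All 3 letters were above the D0 range at D1, D2, D14 and D16, and D7 lay within it. SLC2A3 was called higher in the cytoplasm at D2, D14 and D16 (log2 differences 1.91, 1.29 and 2.19) and higher at D14 than at D7 in both fractions (0.97 in the heavy pool, 1.41 in the cytoplasm). The cytoplasmic D1 difference of 0.80 was not called (adjusted p = 0.053) but was with the replicate block (0.0189), and the D14 calls in the cytoplasm ended without letter C (0.123 against D0, 0.0514 against D7) or, against D0, without letter B (0.0514). Of the 75-base stretches of its transcripts, 8.11% also occur in SLC2A14, a near-identical paralog that was not listed, so some reads may belong to either gene.

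Of 13 other glucose transporter genes 7 were listed. SLC2A12, which encodes a further facilitative transporter, was the member of that list with the largest called change at D2 against D0, at 3.50 in the heavy pool and 2.74 in the cytoplasm (log2). It was still higher at D16 (2.80 and 3.17). Across the list 3 of 7 rose and 1 fell at D2 in the heavy pool, and 2 rose and 2 fell at D16, SLC2A6 (-0.89) and SLC2A8 (-0.70) being those that fell. Among 10 listed genes that control glucose uptake, ARRDC4, an arrestin-like protein that restrains glucose uptake, was higher at D16 than at D0 by 3.42 in the heavy pool and 3.23 in the cytoplasm, and TBC1D4, which regulates transporter traffic, was lower in the heavy pool (-1.26). Of those 10 genes, 3 rose and 5 fell in the heavy pool at D16. For these and the further list counts at D16 against D0, the shares of all genes called higher and lower were 36.2% and 36.6% in the heavy pool and 9.47% and 7.26% in the cytoplasm, and at D2 in the heavy pool they were 30.4% and 34.5%.

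HK2, PFKFB3 and ALDOC act at successive stages of glycolysis: hexokinase 2 phosphorylates the glucose that has entered, PFKFB3 makes fructose 2,6-bisphosphate, the activator of phosphofructokinase, and aldolase C cleaves fructose 1,6-bisphosphate. The 3 genes did not move together, since ALDOC rose and HK2 and PFKFB3 fell in the heavy pool at D14 and D16 against D0. HK2 (ENSG00000159399, chr2:74833981-74893359, plus strand) had heavy pool values of 3050, 2754 and 3533 at D0, 3326, 3452 and 2449 at D1, and 1395, 1357 and 1413 at D2. The later heavy pool values were 2707, 1969 and 3206 at D7, 1411, 1155 and 1240 at D14, and 1976, 2070 and 1465 at D16. The D2 and D14 libraries, 1413 at most, were below every library of the other days. HK2 was lower than at D0 at D2 (-1.16 ± 0.16, adjusted p = 1.07e-06), D14 (-1.29 ± 0.16, adjusted p = 1.78e-07) and D16 (-0.77 ± 0.16, adjusted p = 0.000154) and lower at D14 than at D7 (-1.03 ± 0.16, adjusted p = 9e-06). In the cytoplasm HK2 had 572, 1080 and 1163 at D2 against 1543, 1521 and 2147 at D0, and no other day was called against D0. That cytoplasmic D2 difference (-0.94 ± 0.27, adjusted p = 0.0174) was no longer called without letter A (-0.69, adjusted p = 0.148), which had the lowest D2 value, without letter C (0.0871) or under total-sum scaling (0.0606). Of the 75-base stretches of HK2, 4.16% also occur in the pseudogene HK2P1.

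PFKFB3 (ENSG00000170525, chr10:6144934-6254644, plus strand) fell at D14 and D16 in the heavy pool and was not called against D0 in the cytoplasm. Its heavy pool values ran from 1827 to 4269 over all libraries, with 2335, 2126 and 2552 at D14 and 2262, 2202 and 1827 at D16, against 3427, 3206 and 3443 at D0. The letters of D14 and of D16 did not overlap those of D0. It was lower than at D0 by these tests at D14 (-0.53 ± 0.11, adjusted p = 0.000191) and D16 (-0.69 ± 0.11, adjusted p = 7.71e-06), and lower at D14 than at D7 (-0.32 ± 0.11, adjusted p = 0.0149). Under total-sum scaling the D14 difference against D0 was not called (-0.21, adjusted p = 0.0873), and the D14 against D7 difference was not without letter A (0.146) or letter B (0.0513). In the cytoplasm its values were 1921, 3128 and 2139 at D14 against 773, 1679 and 1526 at D7, a called difference (0.90 ± 0.34, adjusted p = 0.048). That call was lost without letter A of D7 (0.55, adjusted p = 0.252), without letter B of D14 (0.158), without letter C of D2 (0.0542) and in a fit of the compared groups alone (0.0761). It was also lost whichever letter was left out throughout (adjusted p = 0.136 without A, 0.0812 without B and 0.126 without C, limma). With the replicate block the cytoplasmic D7 difference of PFKFB3 against D0 (-0.59) was called (adjusted p = 0.0445).

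ALDOC (ENSG00000109107, chr17:28573115-28577264, minus strand) had its highest level at D16 in both fractions. In the heavy pool it stood at 2108, 2296 and 2143 at D0, 2780, 4050 and 3803 at D1, and 2795, 3455 and 3834 at D2. After the drug it stood at 2539, 2751 and 3495 at D7, 3536, 3315 and 2873 at D14, and 7029, 6971 and 3378 at D16. Every later library was above the D0 libraries, and at D16 letter C stood far below letters A and B. ALDOC was higher than at D0 at D1, D2, D14 and D16 (log2 differences 0.68, 0.61, 0.57 and 1.33), and the D7 difference of 0.41 did not pass (adjusted p = 0.0782, limma; 0.0242 with edgeR). In the cytoplasm it stood at 1308, 1089 and 992 at D0, 2289, 2756 and 3169 at D1, and 2309, 2684 and 1936 at D2. The later cytoplasmic values were 1513, 1560 and 1862 at D7, 2546, 3848 and 2273 at D14, and 6829, 9324 and 4035 at D16. No later library fell to the D0 range, and the D16 libraries were above those of every other day, letter C of D16 included, which at 4035 exceeded letter B of D14 at 3848. The cytoplasmic difference at D16 was the largest of the 10 genes in that fraction (2.50 ± 0.27, adjusted p = 7.84e-06), and D1, D2 and D14 were called as well (1.27, 1.03 and 1.32). The cytoplasmic D1 call ended without letter C (0.0673), the D2 call without letter A (0.063) or letter B (0.0518), and in the heavy pool the D1 call ended without letter B (0.0556) and the D14 call without letter A (0.0884); each of these is an adjusted p.

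The core enzymes and lactate carriers of glycolysis went the other way from ALDOC in the heavy pool. Of 17 such genes 16 were listed, and 15 of 16 were lower at D16 than at D0 with none higher, as also at D14 (median log2 difference over the list -1.13 at D16 and -1.04 at D14, against medians of 0.02 and -0.02 over all genes). At D2, 12 were lower and 2 higher (median -1.09). The D16 difference was -1.87 for PKM, which encodes the last enzyme of the path to pyruvate, -1.67 for ENO1 (enolase) and for PFKL (phosphofructokinase) -1.58. In the cytoplasm 2 of 16 were lower at D16, PGAM1 (-0.81) and TPI1 (-0.71), 5 were with the replicate block, and 1 and 0 were without letter B and letter C. Over all genes 1154 were called lower there, 1753 with the block, and 530 and 70 without letter B and letter C. Among 6 listed hexokinase and PFKFB relatives, 4 were lower and none higher at D16 in the heavy pool, HK1 at -1.58 and HKDC1 at -1.26, while TIGAR, a p53-induced phosphatase of fructose 2,6-bisphosphate, was higher at D2 (1.61). Under total-sum scaling 12 of the 16 core glycolysis genes were lower and 1 higher at D16 and at D14.

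PDK1 (ENSG00000152256, chr2:172555373-172608669, plus strand) encodes a kinase that inactivates pyruvate dehydrogenase and so keeps pyruvate out of the mitochondrial oxidation cycle. It was lower at D1 and higher at D16. Its heavy pool values were 502, 501 and 517 at D0, 294, 267 and 348 at D1, and 465, 379 and 439 at D2. They were 494, 511 and 602 at D7, 478, 499 and 358 at D14, and 1046, 979 and 717 at D16 on the later days. The D1 libraries were below and the D16 libraries above those of all other days. The heavy pool differences from D0 were -0.75 ± 0.15, adjusted p = 0.000264 at D1 and 0.83 ± 0.15, adjusted p = 3.12e-05 at D16. In the cytoplasm it stood at 270.4, 294 and 273 at D0, 142, 109.5 and 195 at D1, and 166, 224 and 269 at D2. It stood at 289, 292 and 274 at D7, 569.5, 307 and 357 at D14, and 1118, 695 and 882 at D16 on the later days. At D16 every letter was above all other days, and letter B was the lowest of D16 as of D14. The D16 difference was 1.66 ± 0.28, adjusted p = 0.000696, and its call just ended without letter C (0.0504). The D1 difference (-0.94 ± 0.28, adjusted p = 0.0281) was lost whichever letter was left out (adjusted p = 0.0694 without A, 0.259 without B and 0.128 without C) and with a GC correction in the blocked fit (-0.47, adjusted p = 0.143), PDK1 having a GC content of 39.8%. Of 12 listed genes of pyruvate dehydrogenase control, 2 were higher and 8 lower in the heavy pool at D16, among them PDHA1 (-1.31) and DLAT (-1.22), subunits of the dehydrogenase complex, and in the cytoplasm 1 was higher and 3 lower, PDK4, a sister kinase, being the one that was higher (1.87).

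BNIP3 (ENSG00000176171, chr10:131966455-131982013, minus strand) encodes a mitochondrial outer membrane protein that marks mitochondria for removal by autophagy. It was higher than at D0 on all 5 later days in the heavy pool. Its heavy pool values were 706, 845 and 965 at D0, 1241, 1392 and 1486 at D1, and 1519, 1461 and 1496 at D2. On the later days they were 1944, 2178 and 2063 at D7, 2256, 2307 and 2251 at D14, and 3426, 3226 and 2737 at D16. The groups followed the order of days without overlap except between D1 and D2. The differences from D0 were 0.72, 0.84, 1.31, 1.45 and 1.90 from D1 to D16, the last with a standard error of 0.11 (adjusted p = 7.11e-13, limma). In the cytoplasm it stood at 1727, 1947 and 1605 at D0, 2716, 3038 and 2386 at D1, and 2859, 2448 and 2376 at D2. The later cytoplasmic values were 3252, 2979 and 2979 at D7, 1855, 1059 and 2000 at D14, and 3291, 1591 and 2308 at D16. All D1, D2 and D7 libraries were above the D0 range, and letter B at D14 and D16 was below it. D7 was the sole day called there against D0 (0.81 ± 0.25, adjusted p = 0.0208), and D14 was lower than D7 (-0.96 ± 0.25, adjusted p = 0.00864). The D7 call ended without letter A of D7 (0.76, adjusted p = 0.0653), without all letter A libraries (0.104) or letter C libraries (0.181) and under total-sum scaling (0.48, adjusted p = 0.196); the D14 against D7 call ended without letter C (0.0634) and under total-sum scaling (-0.49, adjusted p = 0.182). Of its 75-base stretches 5.63% also occur in the pseudogene BNIP3P1. Among 10 other mitophagy receptors and regulators, 5 were higher and 3 lower in the heavy pool at D16, with BNIP3L, the closest relative of BNIP3, at 2.33 and OPTN at 2.00.

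VEGFA (ENSG00000112715, chr6:43770184-43786487, plus strand) encodes vascular endothelial growth factor A, the secreted signal for vessel growth. It fell at D1, D7 and D14 in the heavy pool and was not called higher than at D0 on any day in either fraction. In the heavy pool it had 1565, 1652 and 1552 at D1, 1418, 1184 and 1425 at D7 and 1750, 1617 and 1492 at D14, against 2065, 2287 and 2236 at D0, with no overlap with D0. These differences were -0.47 ± 0.12, adjusted p = 0.00211 at D1, -0.71 ± 0.12, adjusted p = 1.28e-05 at D7 and -0.44 ± 0.12, adjusted p = 0.00171 at D14. At D2 and D16 the values were 1983, 2149 and 2051 and 2167, 2308 and 1584. The D2 and D16 differences of -0.09 and -0.14 were not called, and total-sum scaling, under which the median of all genes was 0.35 and 0.44 in these comparisons against -0.03 and 0.02 with the deposited scaling, turned them into called rises of 0.29 and 0.29 (adjusted p = 0.0352 and 0.0345). The same scaling ended the calls at D1 (-0.27, adjusted p = 0.07) and D14 (-0.12, adjusted p = 0.366), while the D7 call held under it. Cytoplasmic values ran from 660 to 2260 over all libraries, with 659.5, 1343 and 1683 at D7 against 1694, 1998 and 2260 at D0. The D7 difference there (-0.79 ± 0.28, adjusted p = 0.0414) was -0.39, adjusted p = 0.259 without letter A of D7, the lowest library, and was not called by edgeR (0.0597) or without letter A, B or C (0.152, 0.0938 and 0.11). With the replicate block the cytoplasmic D1 difference of -0.66 was also called (adjusted p = 0.0498). Of 9 VEGF relatives and receptors 4 were listed, and NRP2, a co-receptor, was higher at D16 in the heavy pool (2.04) and the cytoplasm (2.50), as were NRP1 (0.87) and PGF (0.50) in the heavy pool.

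NDRG1 (ENSG00000104419, chr8:133237171-133302022, minus strand) encodes a cytoplasmic protein of the N-myc downstream regulated family that is a common marker of hypoxia and is also known to respond to p53 and to iron depletion. It was higher than at D0 on all 5 later days in the heavy pool. Its heavy pool values were 6367, 6946 and 6175 at D0, 16426, 19084 and 18502 at D1, and 20144, 23993 and 26355 at D2. They were 10470, 9060 and 12329 at D7, 10282, 9606 and 8902 at D14, and 17189, 15988 and 8825 at D16 on the later days. Every later library was above the D0 range, and letter C at D16 stood with the D14 libraries. Against D0 the heavy pool differences were 1.47 ± 0.17, adjusted p = 2.93e-07 at D1 and 1.85 ± 0.17, adjusted p = 1.98e-09 at D2, and 0.70, 0.56 and 1.05 at D7, D14 and D16. In the cytoplasm it stood at 2559, 2728 and 3067 at D0, 6341, 9709 and 12413 at D1, and 7879, 16843 and 14398 at D2. The later cytoplasmic values were 2510, 4080 and 4240 at D7, 7726, 13395 and 7489 at D14, and 13621, 23488 and 9113 at D16. At D7 letter A lay just below the D0 range and the other letters above it, and the other days were wholly above it. It was called higher in the cytoplasm at D1, D2, D14 and D16 (1.72, 2.16, 1.73 and 2.36) and higher at D14 than at D7 (1.39 ± 0.35, adjusted p = 0.00788), with the D1 and D14 calls against D0 lost without letter C (adjusted p = 0.0749 and 0.0508). Its relatives NDRG2 and NDRG3 were lower at D16 in the heavy pool (-1.30 and -0.69), and NDRG4 was higher at D1 (1.41).

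HIF1A (ENSG00000100644, chr14:61695513-61748259, plus strand), the regulator, was higher at D1 and lower at D14 and D16 in the heavy pool. The heavy pool values were 4368, 4658 and 5459 at D0, 7709, 8302 and 9191 at D1, and 6624, 5957 and 4920 at D2. They were 3346, 4713 and 3683 at D7, 2373, 3393 and 2494 at D14, and 2986, 3316 and 3190 at D16 thereafter. The D1 libraries were above all others, and the D14 and D16 libraries were below the D0 range. The differences from D0 were 0.80 ± 0.14, adjusted p = 5.69e-05 at D1, -0.82 ± 0.14, adjusted p = 1.44e-05 at D14 and -0.60 ± 0.14, adjusted p = 0.00046 at D16, and D14 was lower than D7 (-0.51 ± 0.14, adjusted p = 0.0031). Total-sum scaling ended the D16 call (-0.18, adjusted p = 0.259), and the replicate block added a call at D7 (-0.31, adjusted p = 0.0396). At D2 the difference of 0.27 was not called by limma (adjusted p = 0.0924) but was by edgeR (0.40, adjusted p = 0.0143). In the cytoplasm HIF1A stood at 3310, 3926 and 3310 at D0, 3816, 1543 and 3151 at D1, and 2239, 2278 and 5006 at D2. The later cytoplasmic values were 1703, 2918 and 2193 at D7, 4272, 1854 and 4618 at D14, and 4321, 1876 and 4814 at D16. Letter B was the lowest at D1, D14 and D16. The letter B library deviated along GC content on those days (r of 0.43, 0.74 and 0.69) and also at D2 (0.36), where letter A was the lowest (0.16). At D7 letter A was the lowest as well (r of 0). The letter with the highest cytoplasmic HIF1A value had an r of -0.33, -0.39, -0.46, -0.16, -0.64 and -0.62 from D0 to D16. HIF1A has a GC content of 36.4%, the lowest of the 10 genes, and the part of GC content in these values was not tested. No cytoplasmic day was called against D0 in the main fit. D7 was called against D0 with the GC correction in the blocked fit (-0.41, adjusted p = 0.0491, limma). It was also called in a fit of the compared groups alone (-0.66, adjusted p = 0.0358). The D14 difference from D7 of 0.58 was not called in the main fit. It was called when letter B was left out (1.20, adjusted p = 0.0179) and with that GC correction (0.515, adjusted p = 0.0168). Among 15 listed genes of HIF subunits and oxygen sensing, which include HIF1A, 7 were higher and 5 lower at D16 in the heavy pool. EPAS1, which encodes HIF-2α, was higher at D2 in the heavy pool (0.88) and the cytoplasm (1.26), HIF1AN, the asparaginyl hydroxylase that restrains HIF, was lower at D16 in the heavy pool (-1.33), and EGLN3, a HIF prolyl hydroxylase that is itself a HIF target, was higher at D16 in the cytoplasm (1.10). Exons of HIF1A overlap HIF1A-AS1 on the opposite strand (117 bases) and AL137129.1 on its own strand (148 bases), and reads there may be shared. Exons of PDK1 (445 bases with AC078883.1), ALDOC (296 with AC005726.4), VEGFA (188 with AL136131.3) and HK2 (7 with AC019069.1) also overlap genes on the opposite strand. Reads may be shared there too.

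**Figure D2:**
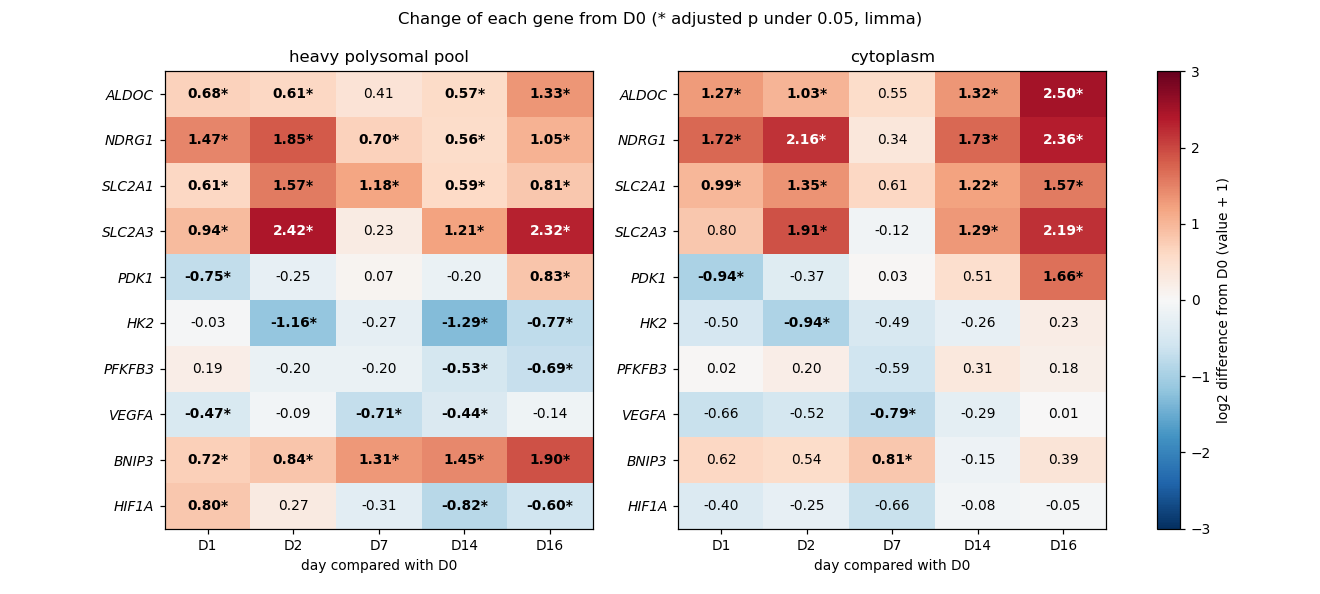
Log2 difference from D0 of each gene on D1, D2, D7, D14 and D16 in the heavy polysomal pool (left) and the cytoplasm (right), from limma on log2(value + 1). Asterisks and bold type mark an adjusted p under 0.05; SLC2A3 reaches 2.42 at D2 in the heavy pool, ALDOC 2.50 at D16 in the cytoplasm, and HK2 -1.29 at D14 in the heavy pool.

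The counts of the 10 genes called on each day are given beside the share of all genes called in the same comparison, and the difference between these shares was not tested. At D1 against D0 the heavy pool had 6 of 10 higher and 2 lower, where 20.1% and 26.9% of all 15852 genes tested were called higher and lower. The genes higher were ALDOC, NDRG1, SLC2A1, SLC2A3, BNIP3 and HIF1A, and those lower were PDK1 and VEGFA. At D2 it had 5 of 10 higher and 1 lower (background 30.4% and 34.5%), and at D7 3 of 10 higher and 1 lower (background 27% and 36.5%). At D14 it had 5 of 10 higher and 4 lower (background 34.4% and 37.6%) and at D16 6 of 10 higher and 3 lower (background 36.2% and 36.6%). The genes that rose on each of these 5 days were NDRG1, SLC2A1 and BNIP3, and since all days share the same D0 libraries this is no independent repeat. Under total-sum scaling the share of higher genes among all calls was 67.9%, 71.7%, 64.5%, 65.0% and 70.7% from D1 to D16, against 42.7%, 46.8%, 42.5%, 47.8% and 49.7% with the deposited scaling. In the cytoplasm the counts were 3 of 10 higher and 1 lower at D1 (background 10.9% and 7.09% of 15889 genes) and 4 of 10 higher and 1 lower at D2 (14.2% and 10.6%). They were 1 of 10 higher and 1 lower at D7 (18.3% and 15.7%), 4 of 10 higher and 0 lower at D14 (7.75% and 5.05%) and 5 of 10 higher and 0 lower at D16 (9.47% and 7.26%). The cytoplasmic D7 count was 4 in all with the replicate block, and none without letter A of D7. Calls over all genes in these fits were 6820 and 3443, against 5398 in the main fit. Total-sum scaling gave 46.1% of all cytoplasmic calls as higher at D1, 36.2% at D7, 77.5% at D14 and 72.8% at D16, against 60.5%, 53.9%, 60.5% and 56.6% with the deposited scaling.

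Of 31 other hypoxia-inducible genes 26 were listed, CA9 and LOX being among those that were not, and BNIP3L, EGLN3 and PFKFB4 of this list stand in other lists too. In the heavy pool 11 were higher and 4 lower at D1, 15 were higher and 5 lower at D2, 11 were higher and 9 lower at D7, 14 were higher and 5 lower at D14 and 18 were higher and 3 lower at D16. ANGPTL4, a secreted lipase inhibitor, was highest at D2 (3.09 against D0), while MIR210HG, the host transcript of a hypoxia-induced miRNA, was highest at D16 (2.92). In the cytoplasm 7 were higher and 2 lower at D2 and 13 were higher and 0 lower at D16, MIR210HG by 3.02 and ANGPTL4 by 2.76 at D16. The median of the list at D16 was 0.92 in the heavy pool and 0.93 in the cytoplasm, beside medians of 0.82 and 0.98 over the 10 genes and of 0.02 and -0.01 over all genes. The cytoplasmic D16 count of 13 was 7 without letter A and 9 without letter C. Calls over all genes in these refits were 1515 and 438, against 2659 in the main fit.

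Between D7 and D14, after the drug had been off for days, some of these genes were called higher and others lower. At D14 against D7 the heavy pool had 2 of 10 higher and 4 lower (background 29.5% and 28.9%) and the cytoplasm 4 of 10 higher and 1 lower (background 16.5% and 19.1%). In the heavy pool SLC2A3 and VEGFA were higher and SLC2A1, HK2, PFKFB3 and HIF1A lower, and in the cytoplasm ALDOC, NDRG1, SLC2A3 and PFKFB3 were higher and BNIP3 lower. The VEGFA difference (0.27 ± 0.12, adjusted p = 0.0469) was lost under TMM scaling (adjusted p = 0.0517) and without letter A or B (0.201 and 0.3). The cytoplasmic ALDOC difference (0.78 ± 0.27, adjusted p = 0.0311) was lost whichever letter was left out, and without letter A of D7 (0.0983) or letter B of D14 (0.128), and the cytoplasmic count fell to 3 without either of those libraries. Without letter C the cytoplasmic calls of SLC2A3, PFKFB3 and BNIP3 ended too (adjusted p = 0.0514, 0.126 and 0.0634, limma). That of PFKFB3 also ended without letter A or B (0.136 and 0.0812). Cytoplasmic calls over all genes were 3024 without letter A of D7 and 4934 without letter B of D14. They were 1191 without letter C, against 5656 in the main fit. Neither count of the 10 genes was tested against the share of all genes called. Total-sum scaling gave 76.2% of all cytoplasmic calls as higher, against 46.4% with the deposited scaling.

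Between D14 and D16, ALDOC, NDRG1, SLC2A3, PDK1, HK2 and BNIP3 rose in the heavy pool, and the other 4 genes did not pass the test. At D16 against D14 it had 6 of 10 higher and 0 lower, where 8.68% and 10.2% of all genes were called higher and lower. SLC2A3 had 636, 674 and 489.9 at D16 against 280.0, 272 and 272 at D14 (1.11 ± 0.19, adjusted p = 0.000536). PDK1 had 1046, 979 and 717 against 478, 499 and 358 (1.03 ± 0.15, adjusted p = 0.000126). HK2 had 1976, 2070 and 1465 against 1411, 1155 and 1240 (0.52 ± 0.16, adjusted p = 0.0238), and BNIP3 had 3426, 3226 and 2737 against 2256, 2307 and 2251 (0.46 ± 0.11, adjusted p = 0.00582). For these 4 genes the D16 libraries lay wholly above the D14 libraries, and the share of all genes for which this held was not taken. ALDOC (0.77 ± 0.20, adjusted p = 0.0108) and NDRG1 (0.49 ± 0.17, adjusted p = 0.0457) were called too, but their letter C was 3378 and 8825 at D16, within or below the D14 range. Letter C of D16 was the lowest of its group for all of the 10 genes but HIF1A and was the heavy pool library farthest from its group mean (0.254). Without letter A, and likewise without letter B, 2 of the 10 genes were called, SLC2A3 and PDK1, and without letter C 8 were. The calls of HK2 (adjusted p = 0.17 without A and 0.191 without B, limma) and BNIP3 (0.0969 and 0.0935) ended there as those of ALDOC and NDRG1 did. Calls over all genes were 538, 791 and 2956 without letter A, B and C, against 2989 in the main fit. With the replicate block NDRG1 was not called (adjusted p = 0.0518). SLC2A1, PFKFB3, VEGFA and HIF1A did not pass (log2 differences 0.22, -0.16, 0.30 and 0.22).

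In the same step 14 of 26 other hypoxia-inducible genes rose, and no core glycolysis gene was called. Of the 26 other hypoxia-inducible genes, 14 were higher and 0 lower at D16 than at D14 in the heavy pool, led by MIR210HG (1.49), ANGPTL4 (1.43) and ANKRD37 (1.13), an ankyrin-repeat protein gene. The median over the list was 0.42, beside 0.47 over the 10 genes and -0.01 over all genes. The count was 4 without letter A, 8 without letter B and 16 without letter C. Of all genes 265, 432 and 1376 were called higher in these refits, against 1376 in the main fit. Of the 16 core glycolysis genes 0 were called by limma in that comparison (median -0.09), and 0 by edgeR, with 2 higher when letter C was left out and 1 higher with the GC correction in the blocked fit. Total-sum scaling gave 15 higher other hypoxia-inducible genes and 2 higher core glycolysis genes, with 71.2% of all calls higher against 46.0% with the deposited scaling. In the cytoplasm no gene of the whole table was called at D16 against D14 (0% higher and 0% lower, limma), 230 genes and 4 of the 10 had an unadjusted p under 0.05, and edgeR called 0. Those 4 were ALDOC, PDK1, SLC2A3 and BNIP3, with cytoplasmic log2 differences of 1.18, 1.15, 0.90 and 0.54. A difference between the fractions in this step was not tested.

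**Figure D3:**
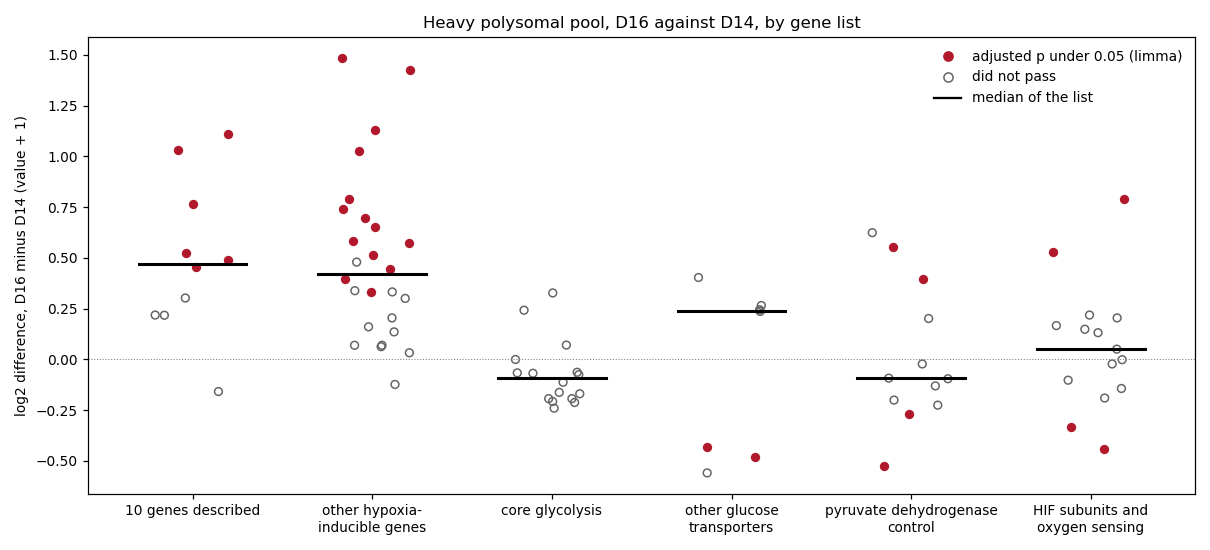
Log2 difference of D16 minus D14 in the heavy polysomal pool for the 10 genes and for 5 lists of related genes; each point is a gene, filled where the adjusted p was under 0.05, and bars are list medians. The medians are 0.47 for the 10 genes, 0.42 for other hypoxia-inducible genes and -0.09 for core glycolysis.

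Polysome association was taken as the log2 value in the heavy pool minus that in the cytoplasm, from 1 fit over all 36 libraries. At D0, 6 of the 10 genes were higher and 1 lower in the heavy pool than in the cytoplasm, where 26.7% and 19.1% of all 15891 genes were called higher and lower. NDRG1 had 6367, 6946 and 6175 in the heavy pool against 2559, 2728 and 3067 in the cytoplasm (1.22 ± 0.30, adjusted p = 0.00134). ALDOC, PDK1, HK2, PFKFB3 and SLC2A1 followed with 0.96, 0.86, 0.85, 0.83 and 0.66. BNIP3 had 706, 845 and 965 in the heavy pool against 1727, 1947 and 1605 in the cytoplasm (-1.07 ± 0.20, adjusted p = 6.68e-05), and was the sole one of the 10 genes called lower. The SLC2A1 call ended without letter A, B or C (adjusted p = 0.129, 0.0773 and 0.0932) and the PFKFB3 call without letter C (0.0536), and total-sum scaling ended both (0.0965 and 0.0512). HIF1A, at 0.46, was not called (adjusted p = 0.274), but was with the GC correction in the blocked fit (0.82, adjusted p = 4.71e-05). A fit of the compared groups alone called it too (0.46, adjusted p = 0.00102, limma). Calls over all genes were 8842 and 10206 in these 2 fits, against 7280 in the main fit.

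Relative to D0, none of these genes was called for a change of association at D1, D2 or D7, and 3 were at D14 and 5 at D16. At D1 0 of the 10 genes changed association (background 0.787% higher and 3.37% lower), at D2 0 (background 0.0378% and 2.03%) and at D7 0 (background 0.749% and 3.2%), by limma and by edgeR, with 1, 0 and 0 at an unadjusted p under 0.05. At D14 1 gene was higher and 2 lower (background 11.5% and 16.7%), and at D16 1 was higher and 4 lower (background 11.6% and 17.9%). BNIP3 was the gene with higher association on both days. Its log2 heavy minus cytoplasm values by letter were 0.28, 1.12 and 0.17 at D14 and 0.06, 1.02 and 0.25 at D16, against -1.29, -1.20 and -0.73 at D0. They were below 0 in every letter at D0 and above 0 in every letter at D14 and D16, and the changes were 1.60 ± 0.28, adjusted p = 0.000268 at D14 and 1.52 ± 0.28, adjusted p = 0.000268 at D16. This was the one of the 10 genes whose call held under total-sum scaling, which left 1 gene on each of these days and added BNIP3 at D7 (1.11, adjusted p = 0.0252). NDRG1 had 0.41, -0.48 and 0.25 at D14 and 0.34, -0.55 and -0.05 at D16, against 1.31, 1.35 and 1.01 at D0. Its changes were -1.16 ± 0.42, adjusted p = 0.0378 and -1.31 ± 0.42, adjusted p = 0.0184, with letter B lowest. HK2 had 0.00, -0.38 and -0.17 at D14 and 0.05, -0.41 and -0.09 at D16, against 0.98, 0.86 and 0.72 at D0, with changes of -1.04 ± 0.33, adjusted p = 0.0195 and -1.003 ± 0.33, adjusted p = 0.0212. For both genes every D14 and D16 letter was below every D0 letter. This held for 6 of the 10 genes on each day, ALDOC, PDK1, SLC2A1 and PFKFB3 being the others, and the last 2 were called on neither day. The share of all genes for which it held was not taken. ALDOC (-1.17 ± 0.36, adjusted p = 0.0141) and PDK1 (-0.83 ± 0.32, adjusted p = 0.0468) were called lower at D16. Their D14 changes, -0.76 and -0.71, were not called in the main fit (adjusted p = 0.111 and 0.0899, limma). That of ALDOC was called in a fit of the compared groups alone (0.0317). That of PDK1 was called with the GC correction in the blocked fit (0.0159) and without cytoplasmic letter B of D14 (0.0428). Without cytoplasmic letter B of D16 the D16 changes of ALDOC, NDRG1 and HK2 were not called (adjusted p = 0.0661, 0.0884 and 0.0867), and without cytoplasmic letter B of D14 that of NDRG1 at D14 was not (0.122). The PDK1 change at D16 was lost under TMM scaling (0.0518). Whichever letter was left out, the PDK1 change at D16, both HK2 changes and the NDRG1 change at D14 were not called (for NDRG1 adjusted p = 0.0659 without A, 0.254 without B and 0.0729 without C). At D16 the NDRG1 change was lost without letter B (0.157) or C (0.0611), and the ALDOC change without letter B (0.119). Of all association calls under total-sum scaling 50.0%, 77.3% and 88.3% were higher at D1, D2 and D7, against 18.9%, 1.8% and 19.0% with the deposited scaling. Among all calls the share of higher ones was 78.6% at D14 and 74.7% at D16 under total-sum scaling, against 40.8% and 39.2% with the deposited scaling.

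HIF1A ratios split by letter at D14 and D16. They were -0.85, 0.87 and -0.89 at D14 and -0.53, 0.82 and -0.59 at D16, against 0.40, 0.25 and 0.72 at D0, so that letter B stood above and letters A and C below 0. The changes of -0.74 and -0.56 were not called, and were without letter B (-1.43, adjusted p = 0.0314 and -1.12, adjusted p = 0.0465) and with the GC correction in the blocked fit (-1.01, adjusted p = 0.000612 and -0.95, adjusted p = 0.00094). SLC2A1, SLC2A3, PFKFB3 and VEGFA were not called at D14 or D16 in the main fit, with changes at D16 of -0.76, 0.12, -0.86 and -0.15. At D14 and D16 PFKFB3 was called in a fit of the compared groups alone (adjusted p = 0.0194 and 0.0474, limma). It was also called on these days without cytoplasmic letter A of D7 (0.0491 and 0.0427). Over all days, 7 of the 10 genes differed in association in an F test, where 54.1% of all genes did, and ALDOC, SLC2A3 and VEGFA did not (adjusted p = 0.0571, 0.556 and 0.482, limma), ALDOC being called with the replicate block (0.0391). Of the 16 core glycolysis genes 7 had lower and 0 higher association at D16, and of the 26 other hypoxia-inducible genes 7 had higher and 5 lower, with TMEM45A at 1.22 and KDM4B at -1.82.

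**Figure D4:**
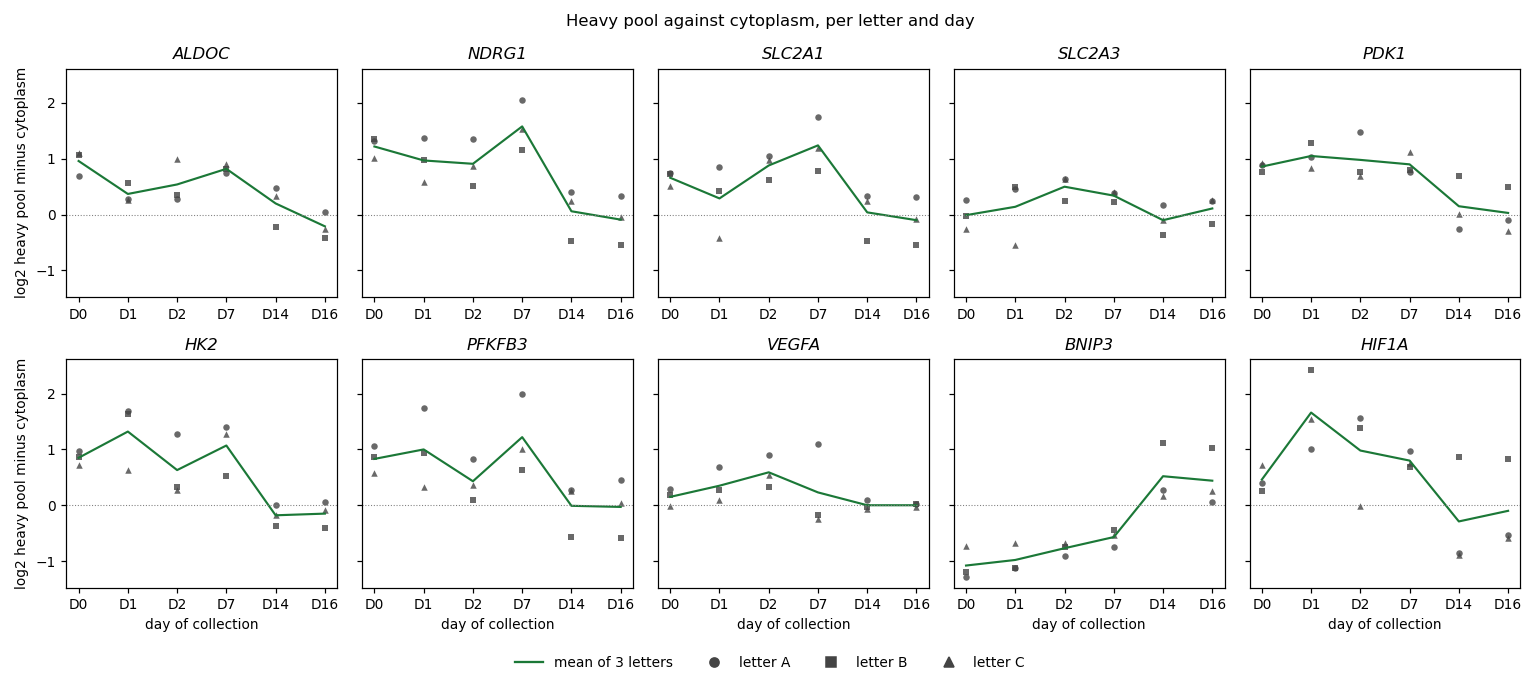
Log2 of the heavy pool value minus log2 of the cytoplasmic value, for each letter (points) and as the mean of 3 letters (line), by day of collection. BNIP3 has 0.06, 1.02 and 0.25 at D16 against -1.29, -1.20 and -0.73 at D0, and HIF1A at D14 and D16 has letter B above 0 and letters A and C below it.

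Likeness of pattern was described by Pearson's r over the 12 group means, centred within each fraction, among protein-coding genes. The group means share libraries, scaling and depth, so these r values describe patterns and carry no test. ALDOC was most like DDIT4 (0.94), NDRG1 most like SCNN1A (0.96) and SLC2A1 most like INAVA (0.95). SLC2A3 was most like AGPAT4 (0.97), PDK1 most like MYLIP (0.93), HK2 most like PGM3 (0.96) and PFKFB3 most like KHDC4 (0.98). VEGFA was most like TBC1D12 (0.93), BNIP3 most like TMEM45A (0.93) and HIF1A most like MON2 (0.96). DDIT4 and TMEM45A also stand in the list of other hypoxia-inducible genes. Among the 10 genes NDRG1 was closest to SLC2A1 (0.87) and SLC2A3 (0.83), HIF1A was closest to PFKFB3 (0.80), and BNIP3 ran against PFKFB3 (-0.73).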

How the data were processed

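The values are a normalised signal: gene read counts that the authors divided by a size factor for each library before they deposited them. The submitters' processing notes name FastQC 0.11.9, cutadapt 3.2, STAR 2.7.9a, Subread 2.0.1 (featureCounts), DESeq2 1.30.1 and GRCh38; the annotation release and the strand setting of the counting were not given in the sources used here, although the labels describe a poly(A) library whose kit marks strand. Of 54 value columns, 36 matched a sample and 18 matched none and were not used. Gene symbols matched for 14909 of 15891 genes and coordinates for 15799 in GENCODE 29, and GC content was available for 99.3% of genes.

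Whole reads could be recovered for 100.0% of values (within 0.01), and edgeR 4.0.16 (quasi-likelihood) on them called 11620 genes at D16 against D0 in the heavy pool, where limma called 11548. The main test was limma 3.58.1 (R 4.3.3; lmFit, eBayes with trend) on log2(value + 1), for genes of at least 10 in at least 3 libraries, with all 6 days of a fraction in 1 fit and all 36 libraries in the fit of polysome association. Tests were two-sided, with Benjamini-Hochberg adjustment over all genes tested and a threshold of 0.05. The code was tested on simulated data.

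The labels give the letter as a batch. The main fit had no term for the letter and so took the libraries as unpaired, also between the fractions. A fit with the letter as replicate block was an alternative. Deviations from group means of same-letter libraries correlated across genes with a mean r of 0.19 between cytoplasmic days (27 of 45 pairs over 0.1), 0.07 between heavy pool days (20 of 45) and 0.00 between the fractions of a day (5 of 18). Further alternatives were a pseudocount of 10, no filter, a filter of 100, total-sum and TMM scaling, a GC correction with the block, fits of the compared groups alone, edgeR, and leaving out each letter and single cytoplasmic libraries.

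The 10 genes and the lists were chosen with earlier results of these data known. All 10 genes were named in every comparison. Of the other lists at most 3 genes were named per comparison, those called with the largest absolute change or direct relatives of the 10 genes. Some genes that this rule would name are not reported here. Figures and descriptions used Python 3.11.15, pandas 2.3.3, numpy 2.4.6 and matplotlib 3.10.9.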

Additional observations from a re-analysis of the deposited data

Results flagged for a closer look

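The change from D0 in the heavy pool differed from that in the cytoplasm for 3 of the 10 genes at D14 and 5 at D16. The test was the interaction term of the limma fit over all 36 libraries. Of all genes 11.5% were called higher and 16.7% lower at D14, and 11.6% and 17.9% at D16. The counts were not tested against these shares. At D14 the difference between the fractions' log2 changes (heavy pool minus cytoplasm) was -1.16 for NDRG1, -1.04 for HK2 and 1.60 for BNIP3. At D16 it was -1.17 for ALDOC, -1.31 for NDRG1, -0.83 for PDK1, -1.003 for HK2 and 1.52 for BNIP3. Under total-sum scaling the call of BNIP3 alone held on each of these days. The HK2 calls on both days, that of PDK1 at D16 and that of NDRG1 at D14 ended whichever letter was left out.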

How the results depend on the processing

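Of 2920 single-gene values under the alternatives, 2746 kept their side of the threshold, 102 lost a call, 70 gained one and 2 reversed. Both reversals were for VEGFA under total-sum scaling in the heavy pool (0.29 at D2 and 0.29 at D16, against D0). Among the 2746, 77 changed sign without being called in either fit. The cause of these changes was not tested. Without single libraries or letters, the number of the 10 genes called against D0 in the cytoplasm ranged from 0 to 6 at D1, 3 to 5 at D2, 0 to 2 at D7 and 1 to 4 at D14, and from 1 to 5 at D14 against D7. It ranged from 2 to 8 at D16 against D14 in the heavy pool, and for association from 1 to 4 at D14, 2 to 6 at D16 and 3 to 8 on any day. All-gene calls in the cytoplasm ranged from 531 to 3537 at D1, 1794 to 4501 at D2 and 1322 to 5877 at D7. They ranged there from 253 to 2612 at D14 and 1191 to 6076 at D14 against D7. In the heavy pool they ranged from 538 to 2956 at D16 against D14. In a fit of only the groups compared, 7 genes were called at D1 and 3 at D14 against D7 in the cytoplasm, and 1 at D1 and 5 at D14 for association. All-gene calls in these comparisons were 5494, 3241, 3790 and 5835, against 2850, 5656, 661 and 4490 in the main fit. Under total-sum scaling 1 was called at D7 in the cytoplasm, and 1 each at D7, D14 and D16 for association. With edgeR 1 was called at D7 in the cytoplasm. With the letter as replicate block 4 were called at D7 in the cytoplasm, and with the GC correction added 6 there and 5 for association at D14. All-gene calls in these fits were 6820, 8356 and 6247, against main-fit calls of 5398, 5398 and 4490. The block added calls for SLC2A3 and VEGFA at D1 in the cytoplasm, SLC2A1 and PFKFB3 at D7 there, SLC2A1 at D14 against D7 there and HIF1A at D7 in the heavy pool, ended that of NDRG1 at D16 against D14 in the heavy pool, and changed no other call of the 10 genes between 2 days. In the tests over all days it added PFKFB3 and VEGFA in the cytoplasm (9 of 10) and ALDOC for association (8 of 10). The lowest value of the 10 genes in any library was 96.2 normalised reads (SLC2A3). The small number of libraries, 3 per group, and the wider scatter of the cytoplasm limit the precision.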
